A study of Mus musculus with 75 samples.

Results

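The genes described here are 6 mRNAs of cellular iron handling, chosen by gene identifier out of 53465 identifiers in the count tables. They are Tfrc (ENSMUSG00000022797), Fth1 (ENSMUSG00000024661), Ftl1 (ENSMUSG00000050708), Slc11a2 (ENSMUSG00000023030), Aco1 (ENSMUSG00000028405) and Ireb2 (ENSMUSG00000032293). All 6 passed the filter on low counts in both assays. Tfrc encodes the transferrin receptor, through which T cells take up iron, and Slc11a2 encodes a transporter that moves ferrous iron across membranes. Fth1 and Ftl1 encode the heavy and light chains of ferritin, the protein shell that stores iron. Aco1 encodes a cytosolic aconitase that becomes iron regulatory protein 1 when it loses its iron-sulfur cluster, and Ireb2 encodes iron regulatory protein 2.

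When iron is scarce, the iron regulatory proteins bind short hairpins called iron-responsive elements. A hairpin in the leader of ferritin mRNAs blocks the start of translation when it is bound, so a ferritin mRNA can be present and yet carry few ribosomes. Hairpins in the tail of the Tfrc mRNA protect it from decay when they are bound. Dividing T cells depend on the transferrin receptor for their iron supply.

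The samples hold effector T cells, sorted as CD4+CD25- from mouse lymph nodes and spleen, and the study asked, by its title, how regulatory T cells (Tregs) bear on translation during activation. The RiboTag assay used 5 mice with parents of 2 strains. From B6N.129-Rpl22tm1.1Psam/J they had a ribosomal protein gene that gains a hemagglutinin tag where Cre acts, and from B6.Cg-Tg(Cd4-cre)1Cwi/BfluJ a Cre driven by Cd4, and RNA was read before (Input) and after (IP) pull-down of the tag. Each mouse gave cells stimulated with anti-CD3/CD28 beads in the presence of Tregs, cells stimulated with beads alone, and cells rested in IL7, which made 30 libraries. In the SPEED assay, cells of 4 mice of the strain B6.SJL-PtprcaPepcb/BoyJ were split on sucrose into polysomal RNA (Pol) and subpolysomal RNA (SubPol) beside Input, after stimulation with HHT added 10 min before harvest, stimulation with Tregs, stimulation alone, or no treatment, which made 45 libraries. Mouse 4 has no HHT culture, and 2 HHT Input libraries share the title of mouse 1, of which 1 was used. As used here, HHT thus has 3 mice in Pol and SubPol and 2 in Input. The library left out is numbered between Input libraries of mouse 2 and mouse 3, and no HHT Input title names mouse 2. It may therefore be of mouse 2, which the labels do not settle. The Tregs were CD4+YFP+ cells of Foxp3YFP-Cre mice. The sources used here give neither the age of the mice, nor the meaning of HHT, nor whether Tregs were taken out before lysis.

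The 6 genes lie on 6 chromosomes of the GRCm38.p6 assembly, by RefSeq. Tfrc spans chr16:32608896-32632794, Fth1 chr19:9980600-9985111, Ftl1 chr7:45457944-45459886, Slc11a2 chr15:100387898-100424209, Aco1 chr4:40143265-40199009 and Ireb2 chr9:54862658-54912534. The iron-responsive elements themselves lie in the transcripts, whose sequence was not used here. The stretches below are the 130 bases just before an annotated start of the receptor gene and of both ferritin genes, the 3 genes whose RNA levels the results turn on. They are shown 5′ to 3′ on the strand of the gene. Capitals mark the letters CCAAT or, on the other strand, ATTGG.
Tfrc, chr16:32608766-32608895, + strand: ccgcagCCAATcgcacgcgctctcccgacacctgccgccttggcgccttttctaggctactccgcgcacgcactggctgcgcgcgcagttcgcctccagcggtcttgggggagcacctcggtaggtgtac
Fth1, chr19:9982516-9982645, + strand: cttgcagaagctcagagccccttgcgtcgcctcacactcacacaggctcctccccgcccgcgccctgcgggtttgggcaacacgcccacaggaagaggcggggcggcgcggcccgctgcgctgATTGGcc
Ftl1, chr7:45459887-45460016, − strand: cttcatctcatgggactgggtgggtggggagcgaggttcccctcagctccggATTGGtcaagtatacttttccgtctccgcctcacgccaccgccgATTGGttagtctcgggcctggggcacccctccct

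Each of the 3 stretches holds the motif, which is the core of the CCAAT box found in many promoters, and Ftl1 holds it 2 times. Within 250 bases before the start it was present in 33.8% of 32851 RefSeq mouse promoter windows (11120 windows, either strand). RefSeq lists 2 starts for Tfrc and 2 for Fth1, and the window before the other start of each holds no copy. The motif in the Tfrc and Fth1 stretches thus depends on which start is shown. The windows of Aco1 and Ireb2 hold none either, and Slc11a2 had no entry in the promoter table.

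A RiboTag library had 1658481 to 2824875 counts over genes and a SPEED library 1566501 to 4621104, and the filter left 10751 genes for RiboTag and 12428 for SPEED. The depth differed between the genes. Tfrc had 14 to 55 counts in rested RiboTag IP and 51 to 95 in rested RiboTag Input, so its rested values stand on few reads. Ftl1 had only 2 to 40 counts in a library, and RefSeq lists 5 processed ferritin pseudogenes, so reads may be split between the ferritin genes and near-identical copies. The Fth1 and Ftl1 values are uncertain for that reason. Levels are CPM, counts scaled to a common library total with TMM factors, and are compared only within a gene, since they are not per length. Changes are log2 fold changes from edgeR's quasi-likelihood test, two-sided, with Benjamini-Hochberg adjustment over all tested genes, and a change was called at an adjusted p under 0.05. In such bulk samples, fewer cells of a type and less RNA per cell cannot be told apart. RNA of the added Tregs cannot be told apart from RNA of the effector cells in Input, Pol and SubPol. The tables hold no gene symbols, so marker genes of T cells and of other cell types were not matched here.

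The transferrin receptor mRNA rose many-fold on stimulation in both assays, while the ferritin mRNAs did not follow it upwards. In RiboTag Input, Tfrc had 444, 506, 309.7, 354 and 349.7 CPM in the stimulated cells of mice 1 to 5, against 35.7, 43.8, 29.5, 24.3 and 39.6 CPM in their IL7-rested cells. The lowest stimulated library lay far above the highest rested one. This was an 11.3-fold rise, or 3.50 on the log2 scale (SE 0.23, edgeR adjusted p = 1.53e-14). On tagged ribosomes the rise was 21.7-fold (log2 4.44, SE 0.25, edgeR adjusted p = 2.85e-16), with 295, 476, 348, 421 and 333 CPM in stimulated IP against 15.4, 16.4, 6.82, 20.7 and 26.9 CPM in rested IP. In SPEED Input, Tfrc had 547, 459, 337 and 382 CPM in stimulated cells against 55.0, 61.6, 94.1 and 94.7 CPM in untreated cells, a 5.66-fold rise (log2 2.50, SE 0.25, edgeR adjusted p = 9.57e-11). These groups did not overlap in any of the 3 comparisons.

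Ferritin heavy chain mRNA was modestly lower after stimulation in the RiboTag assay. Fth1 had 481, 394, 402, 335 and 307 CPM in stimulated Input, against 457, 472, 534, 521 and 534 CPM in rested Input. It was lower in 4 of 5 mice and the groups overlapped through mouse 1. Its change in Input was -0.395 on the log2 scale (SE 0.107, edgeR adjusted p = 0.00184), and on tagged ribosomes it was -0.365 (SE 0.109, adjusted p = 0.00404). In SPEED Input, Fth1 averaged 326 ± 58.4 CPM in stimulated and 334 ± 23.5 CPM in untreated cells (SD, n = 4 each), with a log2 fold change of -0.038 and a 95% interval of -0.379 to 0.303. The difference between the assays was -0.351 and did not pass (edgeR adjusted p = 0.145). So in Input the fall of Fth1 was seen against IL7 rest and was not detected against untreated cells. In the sucrose fractions of SPEED, where this change was not tested, Fth1 was lower after stimulation in 4 of 4 mice in SubPol. The log2 changes there were -0.63 to -0.155. In Pol it was lower in 3 of 4 mice, at -0.395 to 0.204.

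Few reads were counted for the ferritin light chain gene in every library. Since reads may be split with near-identical copies, the level of its mRNA is not known from them. Ftl1 had 1.21, 3.23, 5.32, 2.69 and 3.29 CPM in stimulated RiboTag Input (2 to 11 counts), against 12.1, 9.21, 7.62, 5.73 and 6.68 CPM in rested Input (12 to 26 counts). No stimulated library reached the lowest rested one, and the log2 fold change was -1.362 (SE 0.374, edgeR adjusted p = 0.0021). The rested libraries of mice 1 and 2 were the highest, and with mice 3 to 5 alone the change was -0.81 with an adjusted p of 0.148. In SPEED Input, Ftl1 had 2.17, 3.97, 4.52 and 4.52 CPM in stimulated and 9.12, 5.07, 5.14 and 6.61 CPM in untreated cells, which was lower in 4 of 4 mice at a log2 fold change of -0.771 that did not pass (adjusted p = 0.0658). On tagged ribosomes the change was -0.636 (adjusted p = 0.131).

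The mRNAs of the iron regulatory proteins passed the test in SPEED Input, Aco1 upwards and Ireb2 downwards, and did not in RiboTag Input or IP. Aco1 rose in SPEED Input, with 144, 137, 103 and 119.7 CPM in stimulated cells against 72.9, 74.4, 101.9 and 92.0 CPM in untreated cells. It was higher in 4 of 4 mice, and the lowest stimulated library, of mouse 3, was close to the highest untreated one. Its log2 change was 0.568 (SE 0.166, edgeR adjusted p = 0.00391), and without mouse 1 it was 0.442 with an adjusted p of 0.0921. In RiboTag Input the Aco1 change was 0.293 (SE 0.197, adjusted p = 0.196). Ireb2 fell in SPEED Input, with 46.9, 53.5, 35.2 and 35.1 CPM in stimulated cells against 72.7, 65.7, 68.1 and 75.1 CPM in untreated cells, and these groups did not overlap. Its log2 fold change was -0.714 (SE 0.282, edgeR adjusted p = 0.0307). That call ended without mouse 1, 3 or 4 (adjusted p = 0.0752, 0.0624 and 0.171) and with no filter on low counts (0.0559). In RiboTag Input the Ireb2 change was -0.038, with a 95% interval of -0.446 to 0.371. The difference between the assays in Input passed for neither gene (edgeR adjusted p = 0.442 for Aco1 and 0.0792 for Ireb2). On tagged ribosomes Ireb2 was higher in 4 of 5 mice, at 0.261 (edgeR adjusted p = 0.272), and Aco1 was at 0.206 (0.36). In the SPEED fractions, where this change was not tested, Ireb2 was mixed, at -1.423 to 1.007 in SubPol and -0.623 to 0.47 in Pol. Aco1 was higher there in every mouse.

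Slc11a2, the ferrous iron transporter, stayed near its unstimulated level, and stimulated and unstimulated libraries overlapped in both assays. It averaged 110.0 ± 10.8 CPM in stimulated and 109.7 ± 23.7 CPM in rested RiboTag Input (SD, n = 5 each), a log2 difference of 0.002 with a 95% interval of -0.263 to 0.267. In SPEED Input it averaged 119.7 ± 23.5 CPM in stimulated and 114 ± 36.0 CPM in untreated cells (SD, n = 4 each), a log2 difference of 0.073 with an interval of -0.279 to 0.424. The gene has transcripts with and without an iron-responsive element, and counts per gene do not separate them.

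Read against all genes, the share of members called did not exceed the background in any of the 3 comparisons. On stimulation 1 member of the 6 rose and 2 fell in RiboTag Input, where 63.3% of all genes in the test were called. In RiboTag IP 1 rose and 1 fell, where 64.7% were called, and in SPEED Input 2 rose and 1 fell, where 54.4% were called. The median log2 change of the 6 members was -0.018 in RiboTag Input, 0.132 in RiboTag IP and 0.0175 in SPEED Input, against -0.00504, 0.0176 and 0.00757 over all tested genes. The log2 change of Tfrc exceeded that of 96.5% of all genes fitted in RiboTag Input, 97.3% in RiboTag IP and 92.3% in SPEED Input.

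The Tfrc rise also differed in size between the assays. In one edgeR fit of the 29 Input libraries of both assays and 11843 genes, an addition made after the data were seen, the RiboTag change exceeded the SPEED change by 1.00 on the log2 scale (SE 0.28, adjusted p = 0.011). The unstimulated cells were treated differently, with IL7 in RiboTag and no treatment in SPEED, and the mice differ in strain, so assay, strain and IL7 cannot be told apart in that difference. Stimulated Input levels averaged 393 ± 80.1 CPM in RiboTag (SD, n = 5) and 431 ± 92.5 CPM in SPEED (SD, n = 4). The unstimulated levels were 34.6 ± 7.76 CPM with IL7 in RiboTag (SD, n = 5) and 76.3 ± 21.0 CPM in untreated SPEED cells (SD, n = 4). The tables were scaled separately, so levels are set side by side only as a description.

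**Figure D1:**
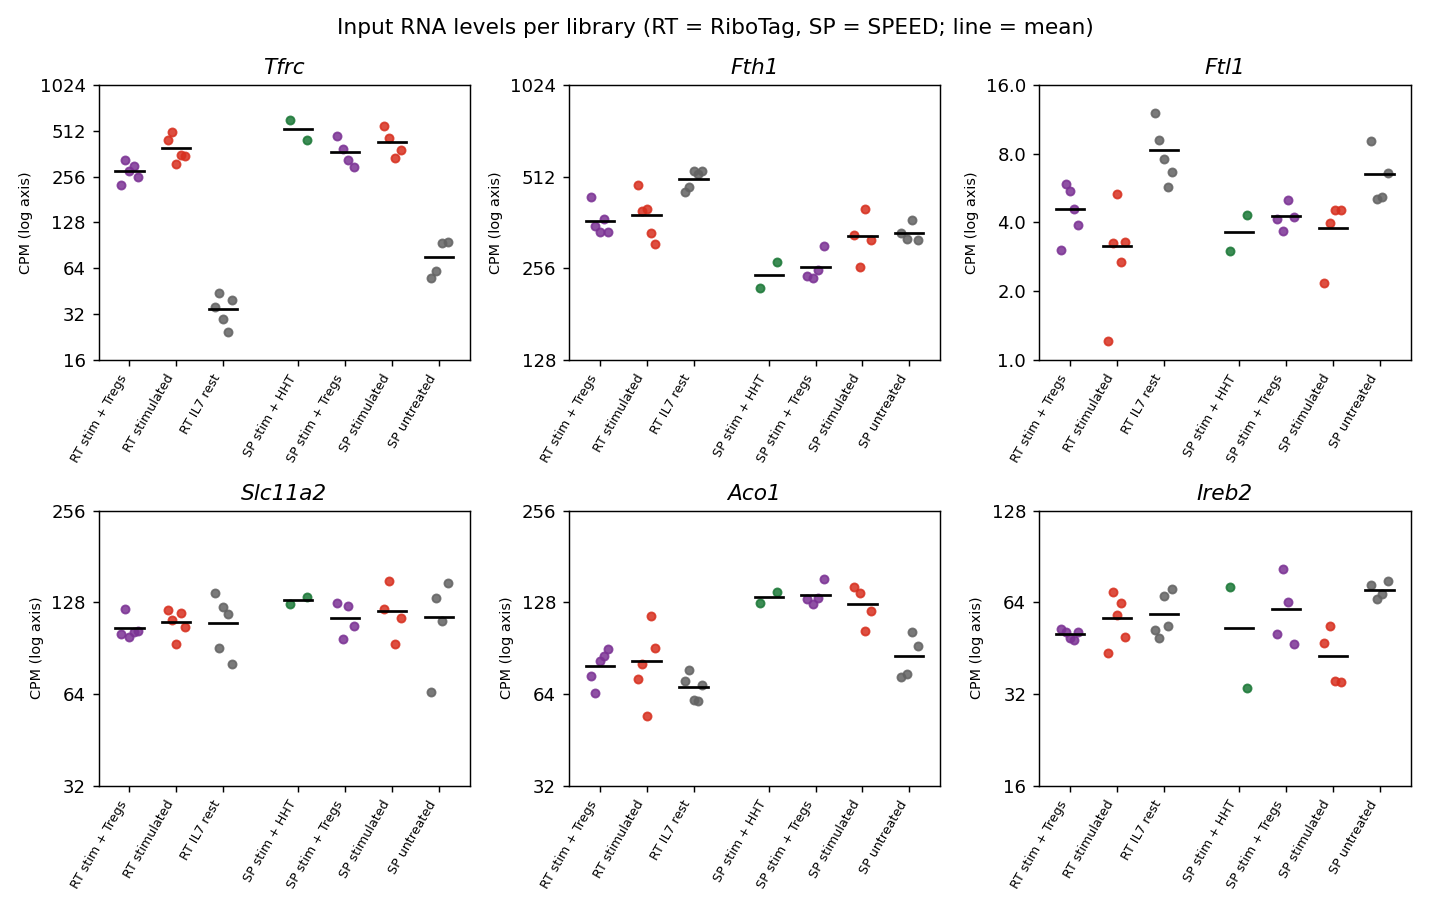
Input level of each of the 6 genes in CPM on a log axis, 1 panel per gene, with a point per library and a line at the mean. From left to right the groups are RiboTag (RT) with Tregs, stimulated and IL7 rest, then SPEED (SP) with HHT, with Tregs, stimulated and untreated. Stimulated Tfrc lies between 309.7 and 547 CPM, above every unstimulated library, while stimulated and unstimulated Slc11a2 libraries overlap within each assay.

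With Tregs in the culture, no member passed the test in Input, yet Tfrc was lower in every mouse. In RiboTag Input, Tfrc had 225, 328, 276, 302 and 253 CPM with Tregs, against 444, 506, 309.7, 354 and 349.7 CPM in stimulated cells without them. It was lower in 5 of 5 mice, with overlap between the groups only through mouse 2 with Tregs. Tfrc differed by -0.50 on the log2 scale (SE 0.194, edgeR adjusted p = 0.142). On tagged ribosomes, which by the strains only the effector cells carry, Tfrc had 141, 278, 226, 373 and 196 CPM with Tregs against 295, 476, 348, 421 and 333 CPM without. It was lower in 5 of 5 mice again, with overlapping groups, at -0.629 (SE 0.196, a 1.55-fold difference). The adjusted p was 0.0507 by edgeR, just outside the threshold. It was 0.0117 with the mouse as a block, 0.0487 with RLE size factors, 0.0344 by DESeq2 and 0.0351 without mouse 4. With no filter on low counts, or with any other mouse left out, Tfrc stayed outside the threshold. Over the fits with 1 mouse left out its log2 difference ran from -0.777 to -0.56. In SPEED Input, Tfrc had 473, 391, 329 and 294 CPM with Tregs against 547, 459, 337 and 382 CPM without. It was lower in 4 of 4 mice, and the log2 difference of -0.215 had an interval of -0.687 to 0.257 (adjusted p = 0.734). The difference between the assays in Input did not pass (-0.285, edgeR adjusted p = 0.936).

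Like Tfrc, the other members did not pass the test with Tregs, and some of their intervals were wide. The count of members called was 0 of 6 in RiboTag Input, against 4.53% of all genes, 0 of 6 in RiboTag IP (5.69%) and 0 of 6 in SPEED Input (0.587%) by edgeR. At an unadjusted p under 0.05 it was 1, 1 and 0 members, Tfrc in both RiboTag fractions, and by DESeq2 it was 0, 1 and 0. Fth1 ran in different directions by fraction, with a log2 difference of -0.063 in RiboTag Input (adjusted p = 0.818), 0.195 in RiboTag IP (higher in 5 of 5 mice, adjusted p = 0.324) and -0.336 in SPEED Input (lower in 4 of 4 mice, adjusted p = 0.357). Ftl1 was higher with Tregs in 5 of 5 mice in RiboTag Input, at 0.522 with an interval of -0.256 to 1.30 (adjusted p = 0.506). Ireb2 was higher with Tregs in 4 of 4 mice in SPEED Input, at 0.506 with an interval of -0.065 to 1.077 (adjusted p = 0.41). In RiboTag Input its difference was -0.179. The median over the members was -0.0645 in RiboTag Input, -0.21 in RiboTag IP and 0.011 in SPEED Input, against 0.00499, 0.00218 and 0.0243 over all tested genes.

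**Figure D2:**
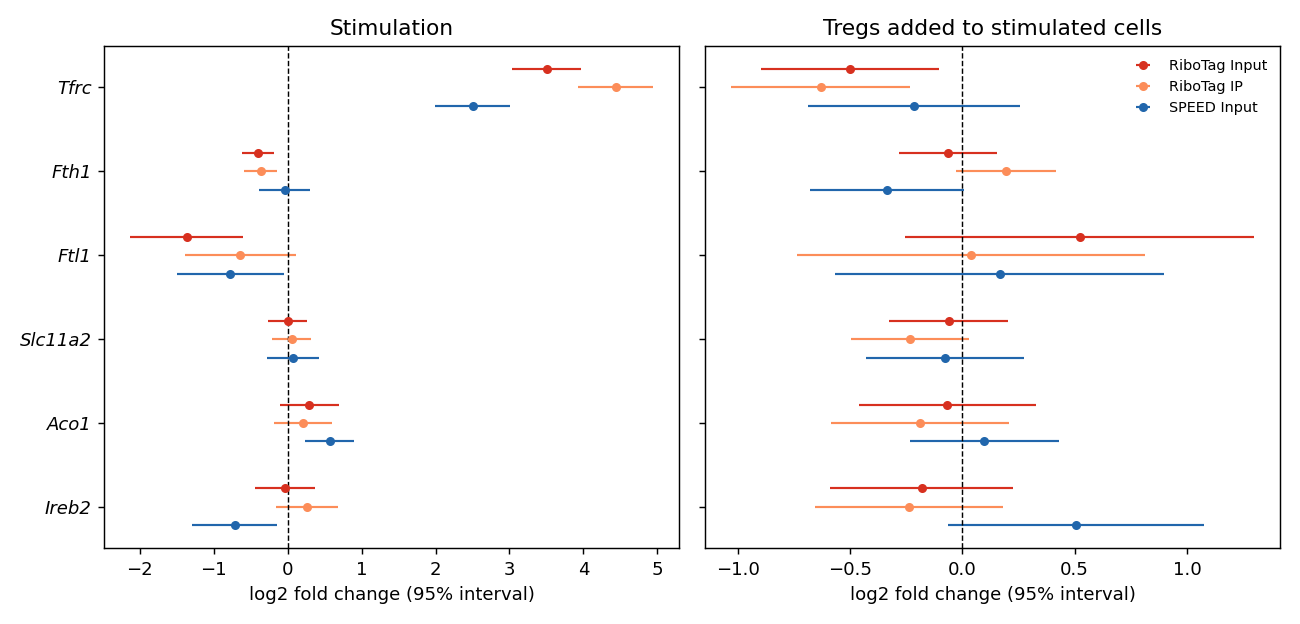
Log2 fold change of each gene (rows) for stimulation against IL7 rest or untreated cells (left) and for Tregs added to stimulated cells against stimulated cells (right), as points with 95% intervals from the edgeR fits, in RiboTag Input, RiboTag IP and SPEED Input. Tfrc lies at 3.50, 4.44 and 2.50 on stimulation and at -0.50, -0.63 and -0.215 with Tregs. The horizontal scales of the panels differ.

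Ferritin heavy chain mRNA was lower in tagged-ribosome IP than in Input in every mouse and every condition. In rested cells Fth1 had 293, 289.5, 319.7, 305 and 320.4 CPM in IP, against 457, 472, 534, 521 and 534 CPM in Input. In stimulated cells it had 304, 202, 231, 234 and 215 CPM in IP, against 481, 394, 402, 335 and 307 CPM in Input. With Tregs it had 315, 238, 239.8, 271 and 293 CPM in IP, against 438, 352, 337, 371 and 338 CPM in Input. IP and Input libraries did not overlap in any of the 3 conditions. Input with Tregs may also hold RNA of the added, untagged Tregs. In that condition the mix of cells and ribosome binding cannot be told apart. The log2 fold change, IP against Input, was -0.721 in rested cells (SE 0.107, edgeR adjusted p = 4.37e-05), -0.691 in stimulated cells (SE 0.108, adjusted p = 0.000188) and -0.434 with Tregs (SE 0.107, adjusted p = 0.0294). The call with Tregs was lost without mouse 2, 3, 4 or 5 (adjusted p = 0.0923, 0.114, 0.117 and 0.0541), with log2 values of -0.511 to -0.42 in those fits. IP over Input of Fth1 averaged -0.72 ± 0.05 on the log2 scale in rested cells (SD, n = 5), the narrowest spread of the 6 members in rested cells.

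The transferrin receptor mRNA was lower in IP than in Input in rested cells. Tfrc had 15.4, 16.4, 6.82, 20.7 and 26.9 CPM in rested IP, against 35.7, 43.8, 29.5, 24.3 and 39.6 CPM in rested Input. These were only 14 to 55 counts in IP and 51 to 95 in Input. IP was lower in 5 of 5 mice, and the groups overlapped through mouse 5 in IP and mouse 4 in Input. The ratio was -1.002 on the log2 scale (SE 0.275, edgeR adjusted p = 0.0225). It was lost without mouse 2 or 3 (adjusted p = 0.117 and 0.12), with mice 3 to 5 alone (0.177) and with no filter on low counts (0.101). In stimulated cells the difference was -0.066 with an interval of -0.46 to 0.328, and with Tregs it was -0.196 with an interval of -0.594 to 0.203. The change of the ratio on stimulation was 0.935 (SE 0.336, unadjusted p = 0.00898, edgeR adjusted p = 0.76), so rested and stimulated cells were not shown to differ.

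Ireb2 mRNA also lay lower in IP, short of the threshold. Its log2 difference, IP against Input, was -0.629 in rested cells (SE 0.205, edgeR adjusted p = 0.0568), lower in 5 of 5 mice. With the mouse as a block the adjusted p was 0.0349, with the culture as a block 0.0115 and by DESeq2 0.0339. The rested Ireb2 difference stayed short of the threshold with RLE size factors, with no filter, with any mouse left out and with mice 3 to 5 alone. In stimulated cells it was -0.33 (5 of 5 mice, adjusted p = 0.503) and with Tregs -0.387 (4 of 5 mice, adjusted p = 0.335). Aco1 and Slc11a2 had intervals that included 0 in all 3 conditions, with log2 differences of 0.008 to 0.216 for Aco1 and -0.063 to 0.11 for Slc11a2. Ftl1 had 0.302 in stimulated, -0.18 in Treg and -0.423 in rested cells, none of which passed, at 2 to 26 counts a library.

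By count, 2 of 6 members were lower in IP than in Input in rested cells, where 6.89% of all tested genes were called. In stimulated cells it was 1 of 6, where 0.977% were called, and with Tregs 1 of 6, where 1.85% were called. The members' median was -0.526 in rested, 0.022 in stimulated and -0.188 in Treg cultures, against -0.000261, 0.0251 and 0.0133 over all tested genes. No member changed its IP over Input ratio on stimulation, where 0.0279% of the tested genes were called, or with Tregs, where 0% were called, by edgeR. At an unadjusted p under 0.05 it was 1 member and 604 genes on stimulation, and 0 members and 125 genes with Tregs. DESeq2 called 0 members and 5 genes on stimulation, and 0 members and 0 genes with Tregs. For Fth1 the change with Tregs was 0.258 with an interval of -0.053 to 0.568 (adjusted p = 1).

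**Figure D3:**
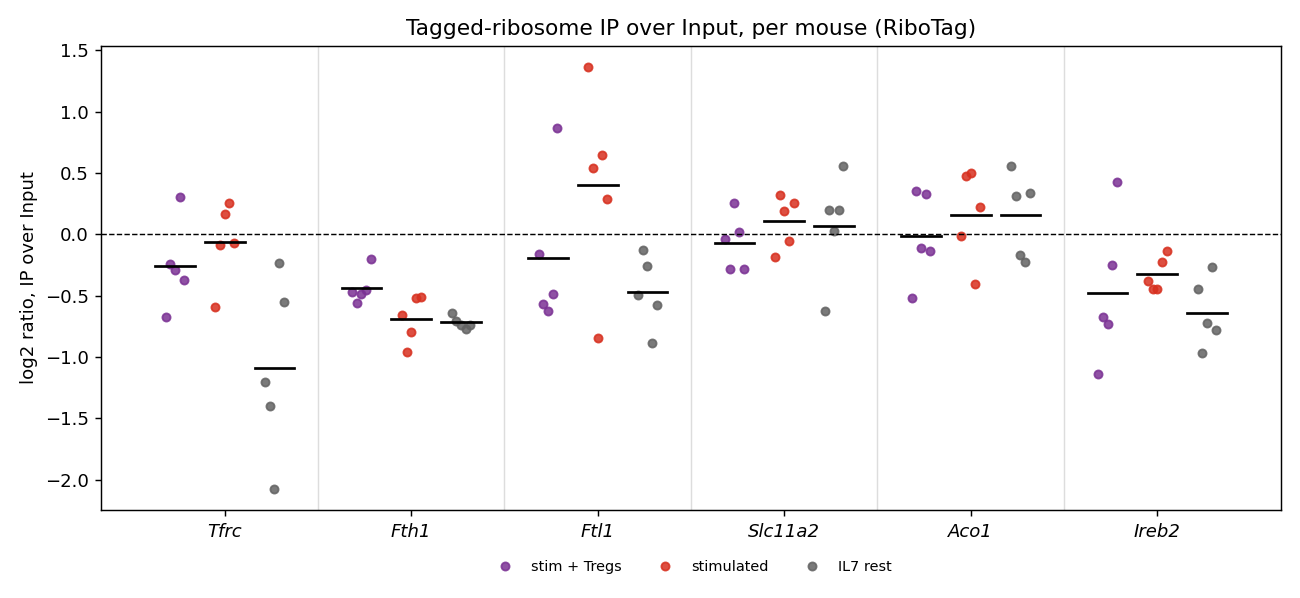
Log2 ratio of IP over Input in each mouse, with a point per mouse and a line at the mean, for the 6 genes in stimulated cells with Tregs, stimulated cells and IL7-rested cells of the RiboTag assay. Every Fth1 point lies below 0, between -0.961 and -0.202. Rested Tfrc points spread from -2.07 to -0.234.

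In the sucrose fractions, ferritin heavy chain mRNA was lower in Pol than in SubPol. This ratio has another denominator than IP against Input. In untreated cells Fth1 had 292, 259, 253 and 296 CPM in Pol, against 420.5, 454, 543 and 597 CPM in SubPol. In stimulated cells it had 222, 237, 204 and 340.2 CPM in Pol, against 378, 388, 351 and 528 CPM in SubPol, and with Tregs 213, 204, 197 and 323 CPM in Pol, against 378, 359.8, 302 and 529 CPM in SubPol. Pol was below SubPol in each mouse in all 3 conditions, and the libraries overlapped with Tregs alone, where Pol of mouse 4 exceeded SubPol of mouse 3. The log2 fold change, Pol against SubPol, was -0.872 in untreated (SE 0.169, edgeR adjusted p = 6.4e-05), -0.721 in stimulated (SE 0.172, adjusted p = 0.000635) and -0.75 in Treg cultures (SE 0.171, adjusted p = 0.000423). Of all tested genes, 14.1%, 23.7% and 22.5% lay lower still in these conditions. With Pol set over Input, Fth1 was not called in any of them (edgeR adjusted p = 0.307, 0.162 and 0.66).

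Ftl1, the light chain, lay lower in Pol than in SubPol too. It had 2.15, 5.12, 3.45 and 1.46 CPM in stimulated Pol (2 to 14 counts), against 7.14, 11.3, 11.2 and 4.47 CPM in stimulated SubPol (8 to 40 counts). Pol against SubPol was -1.452 on the log2 scale (SE 0.369, edgeR adjusted p = 0.00129), and Pol was lower in 4 of 4 mice. With Tregs it was -1.449 (SE 0.366, adjusted p = 0.00129) and in untreated cells -0.545 (4 of 4 mice, adjusted p = 0.213). The change of the ratio on stimulation was -0.906 with an interval of -1.92 to 0.11 (adjusted p = 0.353).

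Aco1 mRNA had the opposite placement, with a far higher CPM in Pol than in SubPol. Each fraction is scaled to its own total, so these are shares of a fraction and not amounts. In untreated cells it had 83.7, 86.6, 83.5 and 94.7 CPM in Pol, against 32.0, 16.3, 27.5 and 30.3 CPM in SubPol. In stimulated cells it had 130.4, 109, 126 and 107 CPM in Pol, against 45.3, 34.3, 73.4 and 33.6 CPM in SubPol, and with Tregs 116, 133, 137 and 140.5 CPM in Pol, against 41.5, 33.2, 45.3 and 39.8 CPM in SubPol. Pol and SubPol did not overlap in any of these conditions. The log2 fold change was 1.722 in untreated (SE 0.185, 3.30-fold, edgeR adjusted p = 1.58e-09), 1.318 in stimulated (SE 0.175, 2.49-fold, adjusted p = 6.89e-08) and 1.717 in Treg cultures (SE 0.177, 3.29-fold, adjusted p = 3.42e-10). With Input as the denominator no Aco1 ratio passed in either assay. IP against Input was 0.216, 0.129 and 0.008 in rested, stimulated and Treg cultures of RiboTag, and Pol over Input was 0.031, -0.093 and -0.04 in untreated, stimulated and Treg cultures of SPEED.

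Tfrc favoured Pol in stimulated cells, by a small margin. It had 465, 418, 327 and 315 CPM in stimulated Pol, against 259, 265, 276 and 177 CPM in stimulated SubPol, with Pol above SubPol in 4 of 4 mice and no overlap. The log2 fold change was 0.637 (SE 0.238, edgeR adjusted p = 0.0267). The call ended without mouse 1, 2 or 4 (adjusted p = 0.116, 0.0742 and 0.0734) and with no filter on low counts (0.0675). With Tregs it was 0.548 (4 of 4 mice, adjusted p = 0.0589, but 0.0376 with the mouse as a block and 0.0232 with the culture as a block). In untreated cells the mice disagreed, with Pol over SubPol at 0.083, -1.20, 1.35 and -0.504 on the log2 scale in mice 1 to 4. The change of the ratio on stimulation was 0.752 (SE 0.352, unadjusted p = 0.0391, adjusted p = 0.255).

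Slc11a2 was higher in Pol than in SubPol in untreated cells, at 0.448 (SE 0.177, edgeR adjusted p = 0.0407). Leaving out SubPol of untreated mouse 3, a library with 12851 detected genes where the others had 13556 to 13735, ended that call (adjusted p = 0.177). It also ended with RLE size factors (0.0652), by DESeq2 (0.0614) and without mouse 2, 3 or 4 (0.215, 0.145 and 0.15). In stimulated cells the difference was -0.243 and with Tregs -0.268, neither of which passed. The ratio changed by -0.691 on stimulation (SE 0.251, unadjusted p = 0.00893, adjusted p = 0.127). Ireb2 did not differ detectably between Pol and SubPol, at 0.16 in untreated, 0.454 in stimulated and -0.112 in Treg cultures, except in stimulated cells without mouse 2, where it was 0.78 (adjusted p = 0.0483).

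Many genes differ between these fractions, and the members' counts are read against that background. In untreated cells 2 of 6 members were higher in Pol and 1 lower, where 39.7% of all tested genes were called. In stimulated cells 2 were higher and 2 lower (45.4% of all genes called), and with Tregs 1 was higher and 2 lower (44.2%). None of these calls held with Input as the denominator. With Pol set over Input, 0 of 6 members were called in each of the 3 conditions, where 1151, 1035 and 1184 genes were called, and Fth1 was at -0.282, -0.388 and -0.151 in untreated, stimulated and Treg cultures. Stimulation changed the Pol over SubPol ratio of 0 members, where 2.6% of the genes were called, and Tregs changed it for 0 members, where 0% were called, by edgeR. At an unadjusted p under 0.05 it was 2 members and 2183 genes on stimulation, and 0 members and 328 genes with Tregs. DESeq2 called 0 members in both, with 666 and 0 genes. For Fth1 the change with Tregs was -0.029 with an interval of -0.518 to 0.459, and for Tfrc -0.089 with an interval of -0.769 to 0.591.

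**Figure D4:**
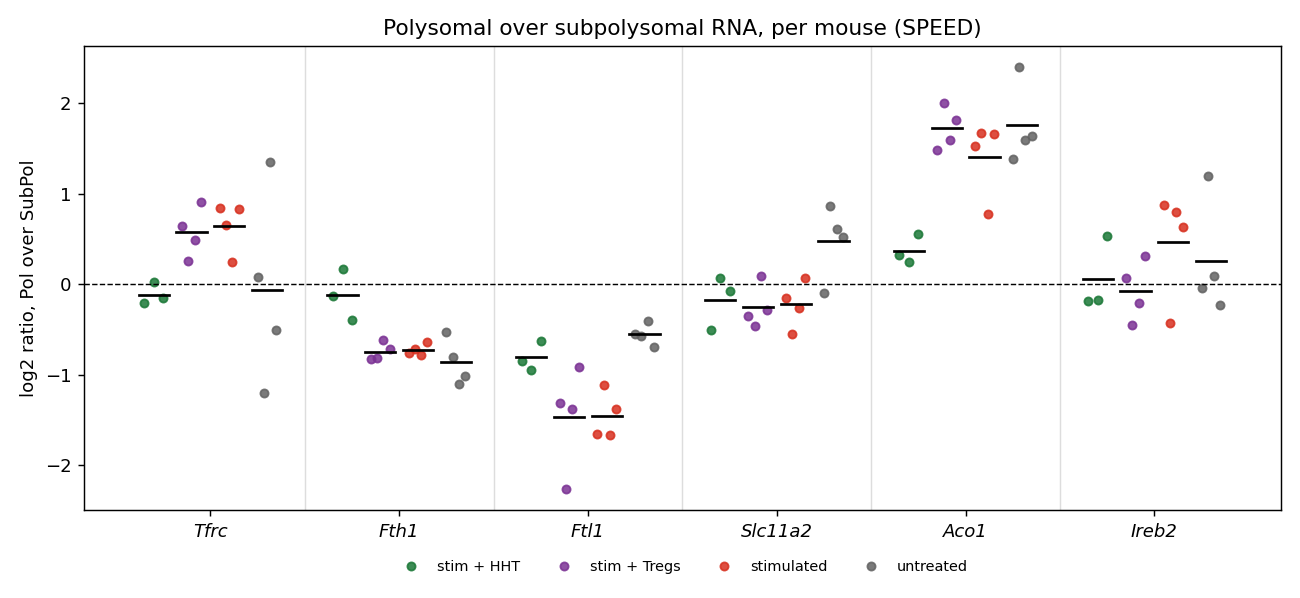
Log2 ratio of Pol over SubPol in each mouse of the SPEED assay, with a point per mouse and a line at the mean, for stimulated cells with HHT, with Tregs, stimulated cells and untreated cells. Fth1 lies below 0 and Aco1 above 0 in every mouse without HHT. With HHT, Fth1 lies between -0.399 and 0.168 and Aco1 between 0.244 and 0.552.

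After HHT for 10 min, the placement of Aco1 in Pol was smaller, and Fth1 did not differ detectably between the fractions. Aco1 had 137, 129 and 183 CPM in Pol with HHT, against 110.0, 109 and 124.5 CPM in SubPol with HHT. Pol was higher in 3 of 3 mice, at 0.393 with an adjusted p of 0.23 by edgeR. Against stimulated cells the Pol over SubPol ratio of Aco1 fell by 0.925 on the log2 scale (SE 0.258, edgeR adjusted p = 0.00748). Aco1 in SubPol was higher with HHT than in stimulated cells in 3 of 3 mice, by 0.762 to 1.67, and in Pol by 0.073 to 0.539. The call was lost without mouse 1 (adjusted p = 0.107) or mouse 2 (0.0589), and with Pol set over Input the change was 0.275 (adjusted p = 0.825).

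Fth1 had 304, 315 and 206 CPM in Pol with HHT, against 331, 280.3 and 272 CPM in SubPol with HHT, and the groups overlapped. The log2 difference, Pol against SubPol, was -0.106 with an interval of -0.505 to 0.292. Against stimulated cells the Fth1 ratio differed by 0.615 (SE 0.261, edgeR adjusted p = 0.0856), which did not pass. It passed with the mouse as a block (0.0289), with the culture as a block (0.0333), by DESeq2 (0.0465) and without mouse 4 (0.0262), which has no HHT culture. The Fth1 change did not pass with RLE size factors, with no filter, without any other mouse, or with Pol set over Input. Over the fits with 1 mouse left out it ran from 0.458 to 0.684. Tfrc had 551, 539 and 405 CPM in Pol with HHT, against 639, 529.9 and 451 CPM in SubPol with HHT, and its ratio differed from stimulated cells by -0.755 (adjusted p = 0.131). Tfrc in SubPol was higher with HHT than without in 3 of 3 mice, by 0.707 to 1.30. Between Pol and SubPol with HHT, 0 of 6 members were called by edgeR, where 6.75% of the tested genes were called (1 member at an unadjusted p under 0.05, 0 by DESeq2). The ratio fell for 1 of 6 members against stimulated cells, where 23% of the tested genes were called, so the share of members is near the background. In Input, HHT changed 0 of 6 members, where 0.105% were called (0 members at an unadjusted p under 0.05, 0 by DESeq2). Tfrc had 600.1 and 444 CPM in Input with HHT in mice 1 and 3, against 547 and 337 CPM in the stimulated Input of these mice. The second HHT Input library with the title of mouse 1 had 676 CPM of Tfrc and 242 CPM of Fth1.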

How the data were processed

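CD4 effector T cells of 9 mice were measured in 30 RiboTag and 45 SPEED libraries, made, per the labels' protocols, with NexteraXT after a SMART-Seq v4 kit. Strand is not marked by it, so reads of a gene and of an antisense partner cannot be told apart. The authors deposited 1 table of raw read counts per gene for each assay. Per the submitters' processing notes, the tools were FastQC 0.11.3, SAMtools 1.2, Picard 1.134 and HTSeq 0.4.1, and the build was GRCm38. The aligner is not given in the sources used here. Another 16 columns in the table of RiboTag counts match none of the samples here, and they were not used. Over 123 pairs of libraries from the same group, chi-square divided by its degrees of freedom was at least 1.81, so none was counted as a copy.

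The counts were fitted with edgeR 4.0.16 under R 4.3.3 (filterByExpr, minimum count 10 and minimum total 15, TMM, robust quasi-likelihood fit with every group of 1 assay in it, biological coefficient of variation 0.188 and 0.215). Ratios of fractions were tested as interactions in the same fit. A standard error is the log2 fold change divided by the root of F. Per-mouse ratios use log2 CPM with a prior count of 0.5. A mean ± SD is over libraries. The fit has no term for the mouse, so its p-values treat libraries as independent, although they share 5 mice in RiboTag and 4 in SPEED. Scaling is to each library's total, so a change in total RNA does not appear.

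Libraries of 1 mouse share its number in the labels, so samples are paired by number. Within a mouse, the mean r of deviations from the group means was 0.18 for RiboTag (-0.0711 to 0.495) and 0.0707 for SPEED (-0.222 to 0.454). The design is thus paired, but the main fit leaves the pairing out, and the mouse was a block only in an alternative. Member calls that this block changed are given beside those results. Other alternatives were the culture as a block, RLE size factors, no filter, DESeq2 1.42.0, Pol over Input, the other library with a repeated title, and leaving out mice or a library. In simulated counts with 200 genes changed 2-fold, the fit recovered 95.5% of them for Tregs in RiboTag Input (10572 genes, 6.37% of calls false) and 70% for Tregs in Pol over SubPol (12002 genes, 4.11% false). The changed genes were drawn from well-expressed genes, a range that leaves out Ftl1. Simulated libraries were independent, with no effect of the mouse. Apart from the changed genes, each simulated gene had the same mean in all groups, whereas the real groups differ in many genes. The shares recovered therefore do not apply to Ftl1 or to changes under 2-fold, and they may differ in the fit of the real counts.

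The members, the gene lists and the tests were chosen with earlier results of these data known. The rule for named genes was to name all 6 members. The planned lists of other iron genes, of cell type markers and of genes with a similar pattern need symbols, and the tables hold only Ensembl identifiers that the RefSeq tables used here do not list, so they were not matched here.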

Additional observations from a re-analysis of the deposited data

Results flagged for a closer look

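Of 126 sets of 4 or 5 libraries or per-mouse ratios of the 6 genes, 5 held a value that stood apart by Dixon's criterion, and chance gives about 1 in 20 such sets. Slc11a2 in RiboTag Input with Tregs was 121.6 CPM in mouse 2, against 98.3 to 103 CPM in the other mice. Ireb2 in rested RiboTag IP was 24.8 CPM in mouse 2, against 38.1 to 44.4 CPM in the others. Tfrc in stimulated SPEED SubPol was 177 CPM in mouse 4, against 259 to 276 CPM in the others. Fth1 in SPEED Pol with Tregs was 323 CPM in mouse 4, against 197 to 213 CPM in the others. The log2 Pol over SubPol ratio of Aco1 in stimulated cells was 0.775 in mouse 3, against 1.52 to 1.67 in the others.

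The stimulation change of Tfrc in Input was larger in RiboTag than in SPEED by 1.003 on the log2 scale, in one edgeR fit of both assays (adjusted p = 0.011). It was higher after stimulation in 5 of 5 RiboTag mice and in 4 of 4 SPEED mice.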

How the results depend on the processing

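The 6 genes were compared with the values as reported over 1122 member values, of which 1002 kept direction and side of the threshold, 33 lost the call, 14 gained it and 73 changed sign. Of the sign changes, 4 concerned called values, all with Pol set over Input: Pol against SubPol became -0.177 for Tfrc in stimulated cells, -0.093 for Aco1 in stimulated cells and -0.04 for Aco1 with Tregs, and the HHT change of Aco1 became 0.275. The cause was not tested. The other sign changes concern values that did not pass, all under 0.5 in size after the change, and of these values the blocks alone called 1, Tfrc in Pol against SubPol with Tregs. With Pol over Input they were -0.14 for Ireb2 in untreated cells, -0.226 for Tfrc with Tregs, and 0.167 for Fth1 and -0.495 for Ireb2 with HHT. The changes of that ratio were -0.097 for Tfrc and -0.105 for Fth1 on stimulation, 0.237 for Fth1 and -0.126 for Ftl1 with Tregs, and 0.106 for Tfrc, -0.024 for Ftl1 and -0.103 for Slc11a2 with HHT. For Aco1 in IP against Input with Tregs the value was -0.003 with the mouse as replicate block, -0.005 with the culture as a block and by DESeq2, -0.006 with RLE size factors and -0.007 with no filter. For Ftl1 in Pol over SubPol with Tregs it was -0.003 with either block, -0.011 with RLE and -0.034 by DESeq2. Fth1 on stimulation in SPEED Input was 0 with RLE and 0.001 by DESeq2. With no filter, Fth1 in IP over Input on stimulation was -0.02 and Ireb2 in Pol against SubPol with HHT -0.018. HHT in Input gave -0.004 for Aco1 with the mouse as replicate block and 0.117 for Ftl1 with the other library of the repeated title. With mice 3 to 5 alone, stimulation gave -0.125 for Slc11a2 in IP, and -0.14 for Slc11a2 and 0.001 for Aco1 in IP over Input.

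With 1 mouse left out at a time, the values whose sign changed ran over these ranges. On stimulation in RiboTag, Input gave -0.163 to 0.099 for Ireb2 and -0.07 to 0.107 for Slc11a2, IP gave -0.054 to 0.12 for Slc11a2, and IP over Input gave -0.081 to 0.112 for Slc11a2, -0.248 to 0.016 for Aco1 and -0.052 to 0.069 for Fth1. With Tregs in RiboTag, Input gave -0.201 to 0.06 for Aco1, IP gave -0.233 to 0.151 for Ftl1, and IP over Input gave -0.308 to 0.078 for Ireb2. IP against Input gave -0.039 to 0.241 for Slc11a2 in rested cells, -0.172 to 0.036 for Tfrc in stimulated cells and -0.105 to 0.09 for Aco1 with Tregs. In SPEED Input, stimulation gave -0.116 to 0.269 for Slc11a2 and -0.076 to 0.047 for Fth1. Tregs gave -0.022 to 0.262 for Ftl1, -0.233 to 0.125 for Slc11a2 and -0.007 to 0.176 for Aco1. HHT gave -0.303 to 0.644 for Ireb2, -0.046 to 0.245 for Slc11a2, -0.082 to 0.204 for Aco1 and -0.271 to 0.035 for Ftl1. Pol against SubPol gave -0.584 to 0.34 for Tfrc and -0.075 to 0.286 for Ireb2 in untreated cells, and -0.213 to 0.119 for Ireb2 with HHT. Changes of Pol over SubPol gave -0.146 to 0.371 for Ftl1, -0.124 to 0.062 for Slc11a2 and -0.191 to 0.014 for Tfrc with Tregs, and -0.182 to 0.255 for Slc11a2 with HHT.

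The count of members called moved by over 1.5 times in 8 comparisons. With Tregs in RiboTag IP it was 0, but 1 with the mouse as replicate block, with RLE and by DESeq2, and 0 to 1 with a mouse left out. For IP against Input in rested cells it was 2, but 1 with no filter and with mice 3 to 5 alone, and 1 to 2 with a mouse left out. With Tregs it was 1, and 0 to 1 with a mouse left out. On stimulation in SPEED Input it was 3, and 1 to 3 with a mouse left out. For Pol against SubPol it was 3, 4 and 3 in untreated, stimulated and Treg cultures, and 0 in each with Pol over Input. For the HHT change of Pol over SubPol it was 1, but 2 with the mouse as replicate block, with the culture as a block and by DESeq2, 0 with Pol over Input, and 0 to 2 with a mouse left out. The mouse as replicate block changed the call of 4 values, which stand beside those results, and of no other member.

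Over all tested genes, counts of calls that moved by over 1.5 times were as follows. Tregs in RiboTag Input had 487 genes, 843 with the mouse as replicate block and 192 to 476 with a mouse left out. Tregs in RiboTag IP had 612, against 1077 with that block, 399 with no filter, 927 by DESeq2 and 221 to 445 with a mouse left out. IP against Input in rested cells had 741, against 1116 with the mouse and 1922 with the culture as a block, 1154 with mice 3 to 5 alone and 253 to 1035 with a mouse left out. In stimulated cells it had 105, against 250, 849, 216 by DESeq2 and 35 to 90. With Tregs it had 199, against 431, 1207, 125 with no filter, 394 by DESeq2 and 42 to 102. The change of IP over Input on stimulation had 3, against 19 with the culture as a block, 9 with mice 3 to 5 alone, 5 by DESeq2 and 0 to 2 with a mouse left out. Tregs in SPEED Input had 73, against 149 with the mouse as replicate block, 47 with no filter, 257 by DESeq2 and 6 to 41 with a mouse left out. HHT in Input had 13, against 35 by DESeq2 and 2 to 14. Pol against SubPol had 4929, 5642, 5495 and 839 in untreated, stimulated, Treg and HHT cultures, against 1151, 1035, 1184 and 5 with Pol over Input. For HHT it was also 421 with no filter and 139 to 813 with a mouse left out. The change of Pol over SubPol on stimulation had 323, against 556 with the mouse and 710 with the culture as a block, 176 with no filter, 1 with Pol over Input, 666 by DESeq2 and 62 to 168 with a mouse left out. With HHT it had 2860, against 44 with Pol over Input and 1664 to 2418 with a mouse left out.

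Low counts limit Ftl1 most, at 2 to 40 counts a library. The planned sum of each ferritin gene with its pseudogenes was not run, since the pseudogenes' identifiers were not matched here.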
